A study of Mus musculus with 18 samples.

Results

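The BCL2 family decides whether a cell keeps its mitochondrial outer membrane intact or opens it and dies. The 10 genes described here are named members of the family and were not selected by a threshold on measured values, although the set was drawn up with earlier results of these data known: the guardians Bcl2, Bcl2l1 (BCL-xL) and Mcl1, the pore-forming effectors Bax and Bak1, and the BH3-only genes Bcl2l11 (BIM), Bad, Bid, Bmf and Pmaip1 (NOXA). They are 10 of the 35275 gene identifiers in the expression table, and all 10 matched a single Ensembl identifier. The RNA came from Treg (regulatory T cells), the Foxp3-dependent CD4+ cells that hold immune responses in check, sorted on yellow fluorescent protein from male mice aged 6 to 8 weeks. The 18 libraries form 6 groups of 3, which the series text describes as independent biological replicates: floxed alleles of Dyrk1, HDAC1, HDAC2, Mef2c or Mef2d carried together with Foxp3YFPcre, and wild type (WT) mice with Foxp3YFPcre alone. All 6 groups therefore carry the cre, which is active in Foxp3+ cells, and the label Dyrk1 does not say whether Dyrk1a or Dyrk1b was floxed. The growth protocol also speaks of Rcor1 knockouts, a gene that no label carries. The question put to the data was whether the survival genes of Treg RNA differ with each deletion label.

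Guardian proteins hold the effectors BAX and BAK inactive by binding them and by sequestering BH3-only proteins. BH3-only genes are switched on by stress, by cytokine withdrawal or by loss of growth signals, and their products release or directly activate the effectors, after which cytochrome c leaves the mitochondrion and caspases are activated. In mouse Treg, MCL1 is required for survival, BIM limits the size of the pool, and interleukin 2 signalling through STAT5 supports the guardians.

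Values are FPKM, fragments scaled by gene length and by library depth, so levels of different genes can be compared. Depth, recovered from the values, ranged from 15.92 to 24.09 M reads. The 7 Treg markers summed to 965 to 1180 FPKM over all 18 libraries, and Foxp3 itself was read at 82.5 to 118 FPKM. The 7 B cell markers summed to 29.7 to 371 FPKM in Dyrk1-labelled, 45.5 to 86.4 in HDAC1-labelled, 42.8 to 61.1 in HDAC2-labelled, 61.4 to 124 in Mef2c-labelled, 49.7 to 172 in Mef2d-labelled and 29.1 to 47.2 in WT libraries, and none of the 7 was at 0 in any library. Replicate 1 of Dyrk1, of Mef2c and of Mef2d carried the most, and these 3 are called the B cell marker-rich libraries. The 7 plasma cell markers, with Jchain the most abundant, summed to 316 to 498 FPKM in Dyrk1-labelled, 550 to 1420 in HDAC1-labelled, 689 to 2120 in HDAC2-labelled, 188 to 239 in Mef2c-labelled, 138 to 318 in Mef2d-labelled and 226 to 525 in WT libraries. Markers of CD8 T and NK, myeloid and erythroid cells summed to ranges that overlapped the WT range with each of the 5 labels. Dyrk1 replicate 1 was nevertheless the highest of all 18 libraries for the CD8 T and NK (125.6 FPKM) and the myeloid markers (497.9 FPKM). Dyrk1 replicates 2 and 3 had 42.91 and 39.37 FPKM of the former and 32.01 and 29.23 FPKM of the latter. WT libraries had at most 51.3 and 201 FPKM. The part of these cells in the differences between labels was not tested. Of the targeted genes, Hdac1 averaged 32 ± 4.34 FPKM in HDAC1-labelled and 119 ± 3.05 FPKM in WT libraries (SD, n = 3 each). Hdac2 was at 27.89 ± 0.937 FPKM in HDAC2-labelled and 28.31 ± 0.519 FPKM in WT libraries, so Hdac1 alone of the targeted genes passed as lower in the libraries carrying its label. Mef2d was higher with its own label (53.36 ± 0.561 against 41.69 ± 4.59 FPKM in WT, limma adjusted p 0.00718), as were Dyrk1a (33.12 ± 2.58 against 27.68 ± 1.46 FPKM, limma adjusted p 0.0352) and Dyrk1b (11.81 ± 0.789 against 7.001 ± 0.466 FPKM, limma adjusted p 0.000679) with the Dyrk1 label, with all labelled libraries above WT. Rises of Mef2d and Dyrk1b were not confined to these labels. Mef2d also passed as higher with HDAC2 (49.95 ± 2.27 FPKM, limma adjusted p 0.0275). With Mef2c it lay above every WT library without passing (48.4 ± 0.891 FPKM, limma adjusted p 0.0693). Dyrk1b also passed as higher with Mef2c (8.866 ± 0.165 FPKM, limma adjusted p 0.0385). Mef2c, at 1.267 ± 0.594 FPKM with its label and 0.4756 ± 0.151 in WT, did not pass. A value over the whole gene also counts reads from exons outside the floxed part and is no check of a deletion on its own. Whether the labels other than HDAC1 are right was not tested, and groups are named by label throughout.

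Mcl1 RNA was the most abundant of the family in every library, and the order of the 10 genes hardly varied. Over the 18 libraries Mcl1 averaged 227.1 FPKM, Bax 98.01, Bcl2 47.12, Bcl2l1 23.84, Bak1 22.37, Bcl2l11 16, Bid 12.95, Bad 10.64, Pmaip1 5.322 and Bmf 2.538 FPKM. Every neighbouring pair kept that order in 18 of 18 libraries, except Bcl2l1 over Bak1 (12 of 18) and Bcl2l11 over Bid (16 of 18). The highest library exceeded the lowest by 1.37-fold for Bcl2l11, 1.53-fold for Bak1, 1.58-fold for Mcl1, 1.68-fold for Bcl2 and 1.8-fold for Bcl2l1. Larger ranges, 2.48-fold and 2.95-fold, belonged to Pmaip1 and Bmf, the most weakly read members. The recovered reads behind a value were 12028 to 20597 for Mcl1 and 141 to 407 for Bmf, a counting error at the lowest library of 0.91% and 8.42%.

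**Figure D1:**
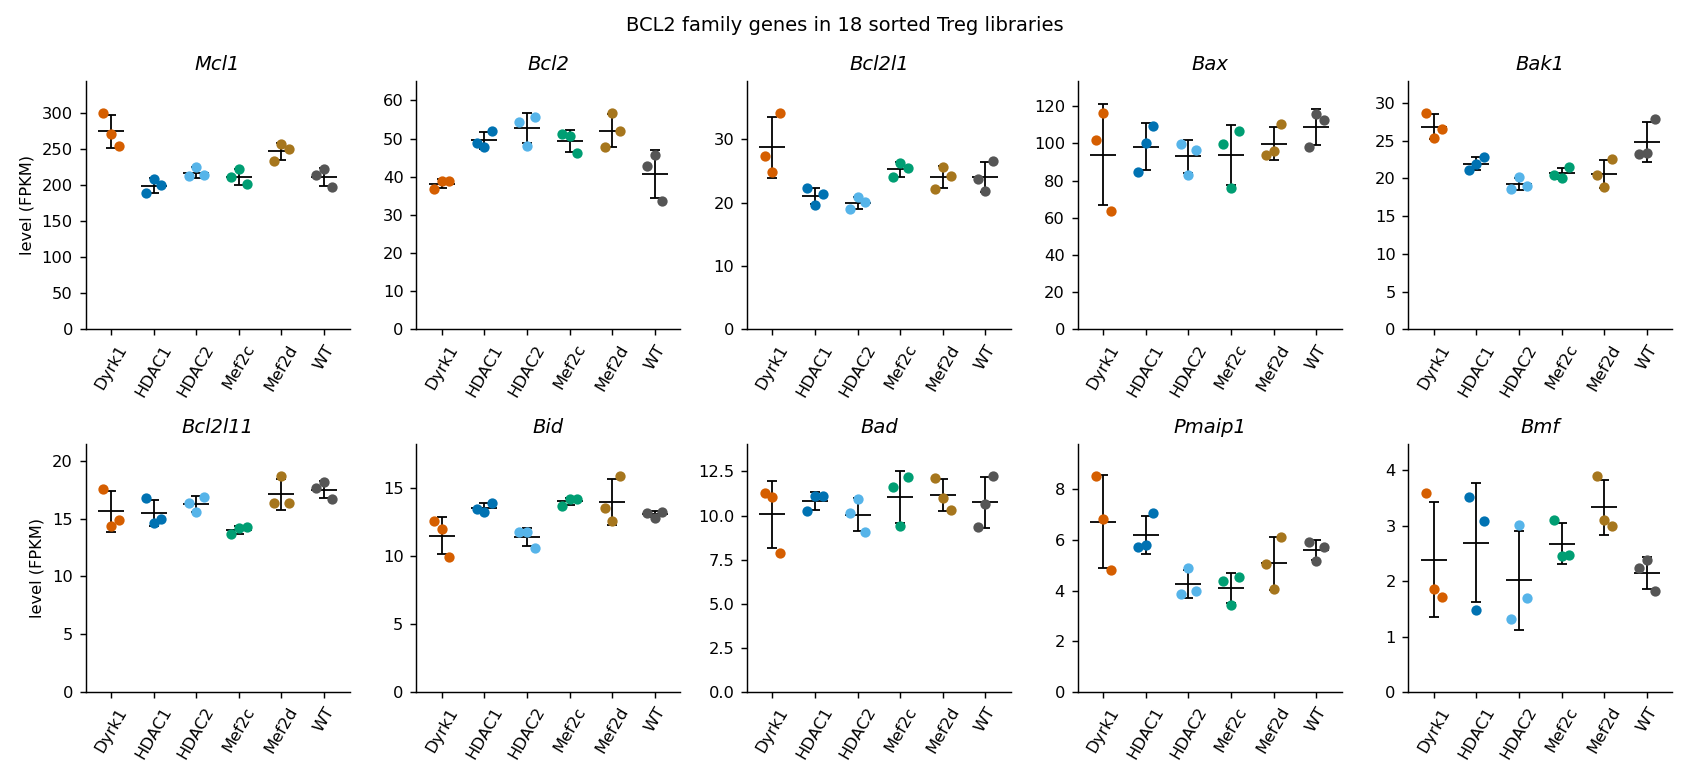
FPKM of each of the 10 BCL2 family members (1 panel per gene, vertical axis from 0) in the 3 libraries of the Dyrk1, HDAC1, HDAC2, Mef2c, Mef2d and WT groups; points are libraries and bars the group mean ± SD. Mcl1 stands highest in the Dyrk1-labelled libraries (253.9 to 299.6 FPKM), where Bcl2 is between 36.77 and 38.97 FPKM.

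Differences were tested with limma on log2(FPKM + 1) in all 18 libraries, with p-values adjusted over the 12223 genes tested and 0.05 as the threshold. All 10 members passed the filter of at least 1 FPKM in at least 3 libraries. An F test over the 6 groups called 7 of the 10 members, where 38.6% of all genes tested were called. These were Mcl1 (limma adjusted p 0.00115), Bak1 (0.00205), Bcl2 (0.00534), Bcl2l1 (0.0117), Bid (0.0282), Pmaip1 (0.0389) and Bcl2l11 (0.0461). Bax, Bad and Bmf were not called (limma adjusted p 0.8, 0.821 and 0.404).

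Against WT, 1 of the 10 members passed in Dyrk1-labelled, 0 in HDAC1-labelled, 2 in HDAC2-labelled, 2 in Mef2c-labelled and 3 in Mef2d-labelled libraries. The share of all genes called in the same comparisons was 17.3% for Dyrk1, 12.5% for HDAC1, 25.6% for HDAC2, 19.0% for Mef2c and 21.9% for Mef2d, so none of these counts is read as particular to the members. At an unadjusted p under 0.05 the counts were 2, 3, 4, 4 and 3 in the same order of labels. Shares of all genes are given throughout at the adjusted threshold only. Counts at an unadjusted p are therefore not read as an excess. The median log2 difference of the members was -0.01, -0.03, -0.14, 0.02 and 0.03, beside 0.02, 0.05, 0.05, 0.04 and 0.04 over all genes tested. These 5 comparisons share the 3 WT libraries. The split of all calls depended on scaling. As deposited it was 1359 higher and 757 lower genes with the Dyrk1 label, 1250 and 283 with HDAC1, 1973 and 1150 with HDAC2, 1581 and 741 with Mef2c, and 1705 and 972 with Mef2d. With a median-of-ratios (RLE) scaling it was 1061 and 975, 849 and 639, 1438 and 1631, 1128 and 1087, and 1284 and 1324.

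**Figure D2:**
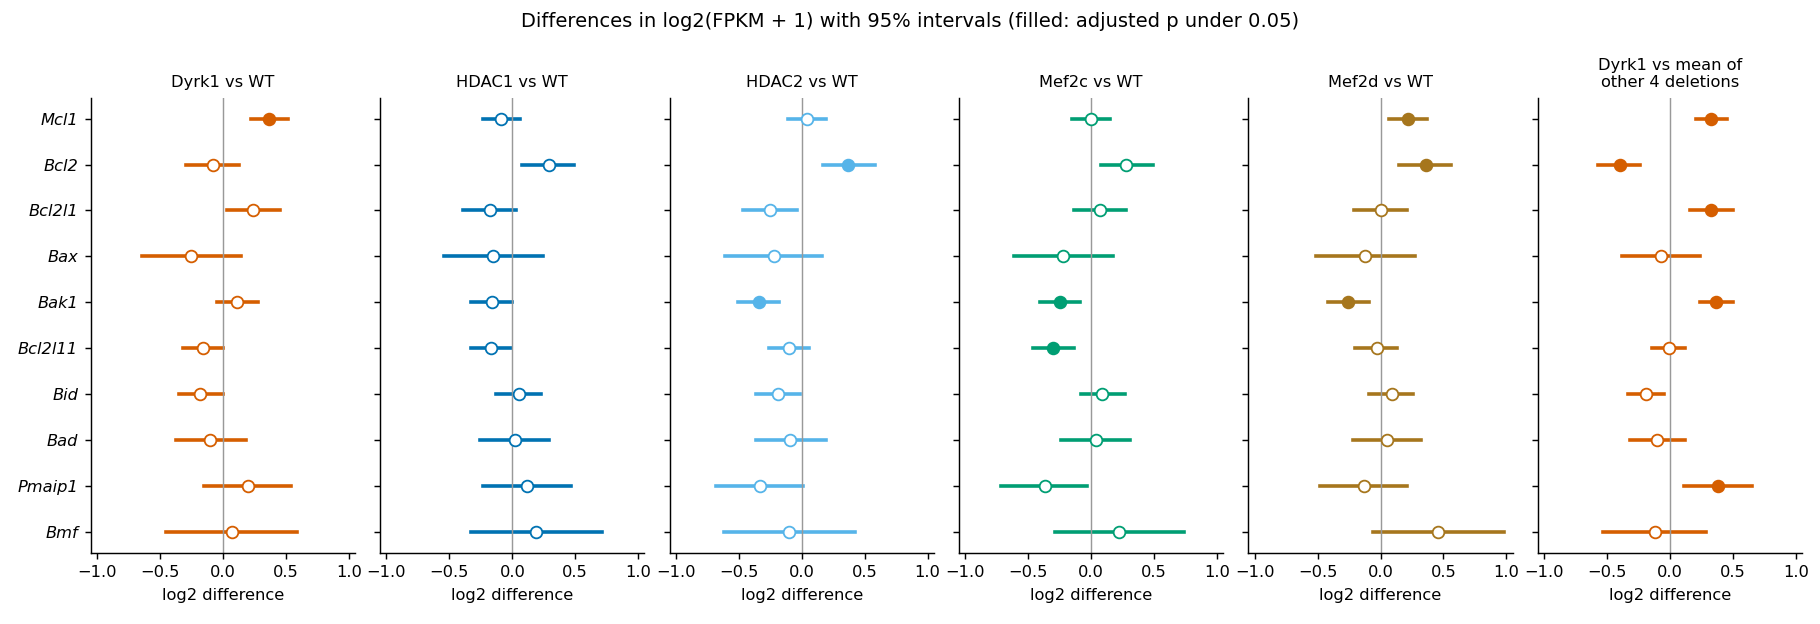
Log2 difference of log2(FPKM + 1) with its 95% interval for each member (1 row per gene) in 6 comparisons (1 panel each): each of the 5 deletion labels minus WT, and Dyrk1 minus the mean of the other 4 deletion labels; filled points passed an adjusted p of 0.05. The intervals of Bax and Bmf are the widest, and the Dyrk1 panel against the other deletions holds 5 filled points, of which Bcl2 alone is below 0.

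Mcl1, the short-lived guardian that binds BIM, NOXA and BAK, lies on mm10 chromosome 3 (ENSMUSG00000038612, 95658788 to 95663176, plus strand). Its level was 299.6, 271.5 and 253.9 FPKM in Dyrk1-labelled, 189.1, 209.2 and 200.4 in HDAC1-labelled, 212.8, 225.8 and 213.5 in HDAC2-labelled, 211.5, 223.2 and 201.1 in Mef2c-labelled, 233.9, 257.1 and 249.7 in Mef2d-labelled, and 214.8, 222.8 and 197.9 in WT libraries. All 3 Dyrk1-labelled and all 3 Mef2d-labelled libraries lay above every WT library, whereas the other 3 labels overlapped WT. Mcl1 was higher with the Dyrk1 label, at 275 ± 23 against 211.8 ± 12.7 FPKM in WT (SD, n = 3 each; log2 0.37, SE 0.07, limma adjusted p 0.00371). In a fit of those 6 libraries alone the log2 difference stayed at 0.37 and the adjusted p was 0.114, over a range of 0.0034 to 0.114 among the alternatives. With the Mef2d label Mcl1 reached 246.9 ± 11.9 FPKM (log2 0.22, SE 0.07, limma adjusted p 0.0358), a call lost under 7 of 14 alternatives, among them without Mef2d replicate 2 (log2 0.19) or 3 (0.21) and without WT replicate 1 (0.23) or 3 (0.17). As the samples are bulk RNA, fewer cells of a type and less RNA per cell cannot be told apart.

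Bcl2, the founding guardian (ENSMUSG00000057329, chromosome 1, 106538178 to 106714274, minus strand), showed another order of the groups. It was read at 36.77, 38.83 and 38.97 FPKM in Dyrk1-labelled, 48.8, 47.81 and 51.99 in HDAC1-labelled, 54.41, 48.19 and 55.58 in HDAC2-labelled, 51.33, 50.68 and 46.21 in Mef2c-labelled, 47.79, 56.6 and 51.91 in Mef2d-labelled, and 42.88, 45.76 and 33.61 in WT libraries. Every library of the HDAC1, HDAC2, Mef2c and Mef2d labels exceeded every WT library, and the Dyrk1-labelled libraries lay inside the WT range. The test called the HDAC2 label (52.73 ± 3.97 against 40.75 ± 6.35 FPKM in WT, log2 0.37, SE 0.10, limma adjusted p 0.0133) and the Mef2d label (52.1 ± 4.41 FPKM, log2 0.36, SE 0.10, limma adjusted p 0.0191). HDAC1 (log2 0.29, limma adjusted p 0.064) and Mef2c (log2 0.28, limma adjusted p 0.0548) did not pass, and both passed without WT replicate 2 (log2 0.37 each). Without WT replicate 3, the lowest of the WT libraries for Bcl2, the HDAC2 and Mef2d calls were lost (log2 0.24 and 0.23), as they were without HDAC2 replicate 1 (0.35) or Mef2d replicate 2 (0.30), with gene length and GC trends taken out (0.22 and 0.23) and in fits of the 6 libraries compared.

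Bcl2l1, whose main product BCL-xL protects activated lymphocytes (ENSMUSG00000007659, chromosome 2, 152780668 to 152831728, minus strand), passed in no comparison with WT. Its values were 27.35, 24.77 and 34.08 FPKM in Dyrk1-labelled, 22.25, 19.67 and 21.32 in HDAC1-labelled, 18.95, 20.91 and 20.04 in HDAC2-labelled, 24, 26.28 and 25.42 in Mef2c-labelled, 22.19, 25.59 and 24.23 in Mef2d-labelled, and 23.68, 21.87 and 26.55 in WT libraries. The HDAC2-labelled libraries all lay below WT without passing (log2 -0.25, limma adjusted p 0.0746), and that difference passed without WT replicate 2 (log2 -0.32). The Dyrk1 difference of 0.24 (limma adjusted p 0.11) passed without Dyrk1 replicate 2 (log2 0.34). For both Mef2 labels the difference from WT was small, at a log2 of 0.07 (95% interval -0.14 to 0.28) for Mef2c and 0.00 (-0.21 to 0.21) for Mef2d.

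The 250 bases before the most upstream RefSeq start of the 3 guardian genes are shown (GRCm38.p6, read along the gene's strand, 5′ to 3′). The 3 genes differed in the labels with which they passed against WT, and Bcl2l1 passed with none. Bcl2l1 is also the only member, of the 9 searched, with a MEF2 motif in this window. Whether the letters of a window bear on these differences was not tested. RefSeq lists 3 windows for Bcl2l1 and for Bmf and 2 for Bcl2l11 and for Bad; over all 15 windows of the 9 members, the one shown for Bcl2l1 is the 1 with a MEF2 motif. Capitals mark GGAAA, the core bound by NFAT factors, on either strand, and in Bcl2l1 also the MEF2 motif. The windows are chr3:95658471-95658720 (plus strand), chr1:106714291-106714540 (minus strand) and chr2:152831729-152831978 (minus strand).
Mcl1: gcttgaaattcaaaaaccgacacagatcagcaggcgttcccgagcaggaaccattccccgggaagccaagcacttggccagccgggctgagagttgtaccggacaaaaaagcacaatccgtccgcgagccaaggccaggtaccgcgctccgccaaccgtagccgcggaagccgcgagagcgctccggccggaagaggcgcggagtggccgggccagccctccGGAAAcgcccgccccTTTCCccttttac
Bcl2: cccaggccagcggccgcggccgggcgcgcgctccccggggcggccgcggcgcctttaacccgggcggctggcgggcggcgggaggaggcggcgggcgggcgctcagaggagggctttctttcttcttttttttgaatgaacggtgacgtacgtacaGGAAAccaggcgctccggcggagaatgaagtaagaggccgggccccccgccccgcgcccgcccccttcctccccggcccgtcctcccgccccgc
Bcl2l1: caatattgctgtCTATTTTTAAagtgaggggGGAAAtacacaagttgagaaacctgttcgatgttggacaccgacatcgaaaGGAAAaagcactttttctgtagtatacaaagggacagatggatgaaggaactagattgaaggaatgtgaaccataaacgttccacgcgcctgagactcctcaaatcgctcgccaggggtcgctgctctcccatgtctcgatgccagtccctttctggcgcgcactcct
The motifs searched on both strands were GGAAA, present in 55.6% of 32851 RefSeq windows of this length, TGTTTAC (the FOXO core, 3.17%), TTCNNNGAA (STAT5, 7.02%) and the MEF2 motif (2.92%). The Bcl2l1 MEF2 match begins at -238, reads as a match on both strands and overlaps neither GGAAA match, at -219 and -168. GGAAA matches began at -28 and -13 in Mcl1 and at -94 in Bcl2, and the STAT5 letters were found in none of the 15 windows. A match describes the letters of the window and not binding.

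Bak1, 1 of the 2 effectors that form the pore, was the member most often lower against WT. This gene (ENSMUSG00000057789, chromosome 17, 27019810 to 27029009, minus strand) was read at 28.62, 25.38 and 26.61 FPKM in Dyrk1-labelled, 21.16, 21.89 and 22.9 in HDAC1-labelled, 18.66, 20.18 and 18.99 in HDAC2-labelled, 20.5, 20.04 and 21.48 in Mef2c-labelled, 20.4, 18.84 and 22.52 in Mef2d-labelled, and 23.23, 23.42 and 27.82 in WT libraries. All 12 libraries of the HDAC1, HDAC2, Mef2c and Mef2d labels lay below every WT library, and the Dyrk1-labelled libraries overlapped WT. Bak1 fell with the HDAC2 label to 19.28 ± 0.797 against 24.82 ± 2.6 FPKM in WT (log2 -0.34, SE 0.08, limma adjusted p 0.00627), and this held under all 14 alternatives. It also passed with the Mef2c label (20.67 ± 0.733 FPKM, log2 -0.25, SE 0.08, limma adjusted p 0.035) and the Mef2d label (20.59 ± 1.85 FPKM, log2 -0.26, SE 0.08, limma adjusted p 0.0278), and did not with HDAC1 (log2 -0.16, limma adjusted p 0.168). The Mef2c and Mef2d calls were lost without WT replicate 3 (log2 -0.17 and -0.18), without replicate 1 (-0.24 and -0.25) or 2 (-0.23 and -0.20) of the label, without the B cell marker-rich libraries (-0.24 and -0.25) and in fits of the 6 libraries compared; Mef2c was also lost with no filter (-0.25) and Mef2d with gene length and GC trends taken out (-0.21).

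The RefSeq window before Bak1 (GRCm38.p6, chr17:27028628-27028877, minus strand) is shown for comparison with Bcl2, since the levels of these 2 genes moved in opposite directions. Capitals mark GGAAA on either strand, at -162 and -139, where the Bcl2 window holds 1 match. The Bak1 window lies inside the longer GENCODE gene model.
Bak1: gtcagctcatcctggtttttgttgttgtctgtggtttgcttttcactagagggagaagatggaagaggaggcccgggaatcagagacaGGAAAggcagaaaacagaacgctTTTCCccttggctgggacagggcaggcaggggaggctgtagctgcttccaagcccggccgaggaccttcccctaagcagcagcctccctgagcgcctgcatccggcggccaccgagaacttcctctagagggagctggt
The Bak1 gene lies within Ggnbp1 on the other strand, a gene read at 0.319 to 0.803 FPKM, and the strand setting of the counts is not given in the sources used here. Reads of the pair cannot be told apart where they overlap. The same applies to Bid with Bcl2l13 (913 shared bases), Bad with Gpr137 (620 shared bases) and Bcl2 with the antisense gene D630008O14Rik, which was read at no more than 0.509 FPKM.

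Bax, the effector that moves from the cytosol to mitochondria (ENSMUSG00000003873, chromosome 7, 45461697 to 45466898, minus strand), did not pass in any comparison. Its values were 101.9, 116.1 and 63.71 FPKM in Dyrk1-labelled, 84.84, 100.4 and 109.6 in HDAC1-labelled, 99.48, 83.08 and 96.63 in HDAC2-labelled, 99.59, 75.84 and 106.5 in Mef2c-labelled, 93.71, 95.79 and 110.3 in Mef2d-labelled, and 97.79, 116 and 112.8 in WT libraries. The groups overlapped, and Dyrk1 replicate 3 had the lowest Bax of all 18 libraries, as it did for Bad at 7.863 FPKM. It also had the lowest Bid (9.989 FPKM) and the highest Bcl2l1 (34.08 FPKM). This library differed widely over all genes averaging at least 5 FPKM. Its median absolute log2 difference was 0.226 from Dyrk1 replicate 1 and 0.213 from replicate 2, and at most 0.137 in every other pair within a group. Differences from WT lay between -0.25 and -0.12 on the log2 scale, and their 95% intervals were wide, from -0.64 to 0.14 for Dyrk1 and from -0.51 to 0.27 for Mef2d.

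Bcl2l11 encodes BIM, the BH3-only protein that binds all the guardians and removes lymphocytes deprived of cytokine (ENSMUSG00000027381, chromosome 2, 128126038 to 128162547, plus strand). It was read at 17.6, 14.35 and 14.89 FPKM in Dyrk1-labelled, 16.77, 14.66 and 14.95 in HDAC1-labelled, 16.31, 15.57 and 16.89 in HDAC2-labelled, 13.66, 14.18 and 14.26 in Mef2c-labelled, 16.32, 18.67 and 16.35 in Mef2d-labelled, and 17.61, 18.17 and 16.73 in WT libraries. The Mef2c-labelled libraries were the lowest group and lay below every WT and every Mef2d-labelled library. Bcl2l11 fell with the Mef2c label to 14.04 ± 0.324 against 17.5 ± 0.724 FPKM in WT (SD, n = 3 each; log2 -0.30, SE 0.08, limma adjusted p 0.0147). The call was lost without Mef2c replicate 1, at a log2 difference of -0.28, and held under the other 13 alternatives. Directly, Mef2c against Mef2d gave 14.04 ± 0.324 and 17.11 ± 1.35 FPKM, which did not pass (log2 -0.27, limma adjusted p 0.0866). With the HDAC1 label the log2 difference was -0.17 and passed with gene length and GC trends taken out (-0.31), and with the Dyrk1 label -0.16, which passed on the same terms (-0.26), without the B cell marker-rich libraries (-0.24) and without Dyrk1 replicate 1 (-0.24).

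FOXO transcription factors are known to switch on Bcl2l11, and its RefSeq window (GRCm38.p6, chr2:128125788-128126037, plus strand) is shown because it alone of the 9 most upstream windows, and of all 15, holds the FOXO core, in capitals, on the minus strand at -227.
Bcl2l11: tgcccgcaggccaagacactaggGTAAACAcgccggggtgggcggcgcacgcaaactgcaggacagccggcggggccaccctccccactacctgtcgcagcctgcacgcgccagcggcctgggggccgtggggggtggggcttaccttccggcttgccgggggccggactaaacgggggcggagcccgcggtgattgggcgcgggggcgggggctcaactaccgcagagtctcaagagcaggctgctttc
The levels of Foxo1, from 42.9 to 57.3 FPKM over the libraries, and of Foxo3, from 15 to 21.1 FPKM, did not pass in any comparison.

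The remaining BH3-only genes did not pass against WT. Bid (ENSMUSG00000004446, chromosome 6, 120891930 to 120916853), which caspase 8 cleaves to link death receptors to mitochondria, was read at 12.61, 11.98 and 9.989 FPKM in Dyrk1-labelled, 13.52, 13.29 and 13.95 in HDAC1-labelled, 11.81, 11.77 and 10.64 in HDAC2-labelled, 13.74, 14.19 and 14.24 in Mef2c-labelled, 13.54, 12.62 and 15.91 in Mef2d-labelled, and 13.22, 12.84 and 13.25 in WT libraries. It averaged 11.53 ± 1.37 FPKM with the Dyrk1 label and 11.41 ± 0.664 with HDAC2, against 13.1 ± 0.224 in WT. All libraries of both labels lay below WT, yet neither difference passed (log2 -0.18 and -0.19, limma adjusted p 0.155 and 0.11), and HDAC2 passed with RLE scaling (-0.24). Pmaip1 (ENSMUSG00000024521, chromosome 18, 66458533 to 66465565), whose product NOXA binds MCL1 and marks it for destruction, was read at 8.504, 6.822 and 4.825 FPKM in Dyrk1-labelled, 5.714, 5.807 and 7.045 in HDAC1-labelled, 3.881, 4.891 and 3.969 in HDAC2-labelled, 4.359, 3.434 and 4.536 in Mef2c-labelled, 5.029, 4.06 and 6.122 in Mef2d-labelled, and 5.921, 5.168 and 5.708 in WT libraries. It averaged 4.247 ± 0.559 FPKM with HDAC2 and 4.109 ± 0.591 with Mef2c, against 5.599 ± 0.388 in WT. Both groups lay below WT in all 3 libraries without passing (log2 -0.33 and -0.37, limma adjusted p 0.139 and 0.119), and Mef2c passed with gene length and GC trends taken out (-0.41). Bmf (ENSMUSG00000040093, chromosome 2, 118528757 to 118549687), a sensor of cell detachment, ranged from 1.316 FPKM in an HDAC2-labelled to 3.889 FPKM in a Mef2d-labelled library. All Mef2d-labelled libraries exceeded WT for Bmf (3.325 ± 0.492 against 2.144 ± 0.285 FPKM; log2 0.46, limma adjusted p 0.19), which passed in a fit of the 6 libraries alone. Bad (ENSMUSG00000024959, chromosome 19, 6941861 to 6951899), held inactive by growth factor signalling, had group means of 10.04 to 11.14 FPKM, with libraries that overlapped those of WT for each label.

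The direct comparisons of paralogous labels called no member and few of all genes, so the absence of calls is not read as particular to the members. HDAC1 against HDAC2 gave 0 calls in limma, where 1.50% of all genes were called at the same adjusted threshold. At an unadjusted p under 0.05 there were 3 members, and no share of all genes is given for that threshold. Of these 3, Pmaip1 was at 6.188 ± 0.743 and 4.247 ± 0.559 FPKM (log2 0.45, 95% interval 0.11 to 0.80), Bak1 at 21.98 ± 0.873 and 19.28 ± 0.797 FPKM (log2 0.18, 0.02 to 0.34) and Bid at 13.58 ± 0.334 and 11.41 ± 0.664 FPKM (log2 0.23, 0.06 to 0.41). Mef2c against Mef2d gave 0 calls in limma, where 3.06% of all genes were called at the adjusted threshold. At an unadjusted p under 0.05, again without a share of all genes, there were 2 members. The 2 were Bcl2l11 and Mcl1, which was at 211.9 ± 11.1 FPKM with Mef2c and 246.9 ± 11.9 with Mef2d, with no overlap of libraries (log2 -0.22, 95% interval -0.37 to -0.07, limma adjusted p 0.133).

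Dyrk1-labelled Treg stood apart from the other 4 deletion labels in 5 of the 10 members, 4 higher and 1 lower, where 21.9% of all genes were called. Only Mcl1 of these 5 also passed with the Dyrk1 label against WT. Bcl2 averaged 38.19 ± 1.23 FPKM in the 3 Dyrk1-labelled and 50.94 ± 3.33 FPKM in the 12 other libraries, with no overlap (log2 -0.40, SE 0.08, limma adjusted p 0.00146). Bak1 averaged 26.87 ± 1.64 against 20.63 ± 1.4 FPKM, again without overlap (log2 0.37, SE 0.06, limma adjusted p 0.000493). Mcl1 averaged 275 ± 23 against 218.9 ± 20.2 FPKM (log2 0.33, SE 0.06, limma adjusted p 0.000562). These 3 differences passed under all 23 alternatives. Bcl2l1 averaged 28.73 ± 4.81 against 22.57 ± 2.49 FPKM (log2 0.33, SE 0.08, limma adjusted p 0.00738), a call that of the 23 alternatives was lost only without Dyrk1 replicate 3 (0.20). Pmaip1 averaged 6.717 ± 1.84 against 4.904 ± 1.08 FPKM (log2 0.38, SE 0.13, limma adjusted p 0.0461), and was lost under 14 of 23 alternatives. Among these were the fits without the B cell marker-rich libraries (0.22), without Dyrk1 replicate 1 (0.21) or 2 (0.36), without either of replicates 1 and 2 of HDAC1 (0.37 each), replicates 1 and 3 of HDAC2 (0.37 each), replicates 1 (0.39) and 2 (0.35) of Mef2c and replicates 1 (0.38) and 2 (0.35) of Mef2d. Bid, at 11.53 ± 1.37 against 13.27 ± 1.39 FPKM, did not pass (log2 -0.19, limma adjusted p 0.0538), and did without the B cell marker-rich libraries (-0.26), without Dyrk1 replicate 1 (-0.25) or without Mef2d replicate 2 (-0.20).

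Within each library the balance between family members can be given as a ratio, which library scaling does not touch. The log2 ratio of Mcl1 to Bcl2 had a median of 2.81 (range 2.70 to 3.03) in Dyrk1-labelled, 1.95 (1.95 to 2.13) in HDAC1-labelled, 1.97 (1.94 to 2.23) in HDAC2-labelled, 2.12 (2.04 to 2.14) in Mef2c-labelled, 2.27 (2.18 to 2.29) in Mef2d-labelled and 2.32 (2.28 to 2.56) in WT libraries. All Dyrk1-labelled libraries lay above the other 15. On a linear scale Mcl1 RNA was 8.15, 6.99 and 6.51 times Bcl2 RNA in the Dyrk1-labelled libraries, against 5.01, 4.87 and 5.89 times in WT. For BIM against MCL1, the log2 ratio of Bcl2l11 to Mcl1 was -4.24 to -4.09 with the Dyrk1 label, below every other library, and -3.62 to -3.56 in WT. Bcl2l11 to Bcl2 ran from -1.44 to -1.06 with the Dyrk1 label and from -1.33 to -1.01 in WT, and was below every WT library in all 12 libraries of the other 4 labels, from -1.91 to -1.54. These ratios are of RNA, their size depends on the gene lengths used, and they carry no test.

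**Figure D3:**
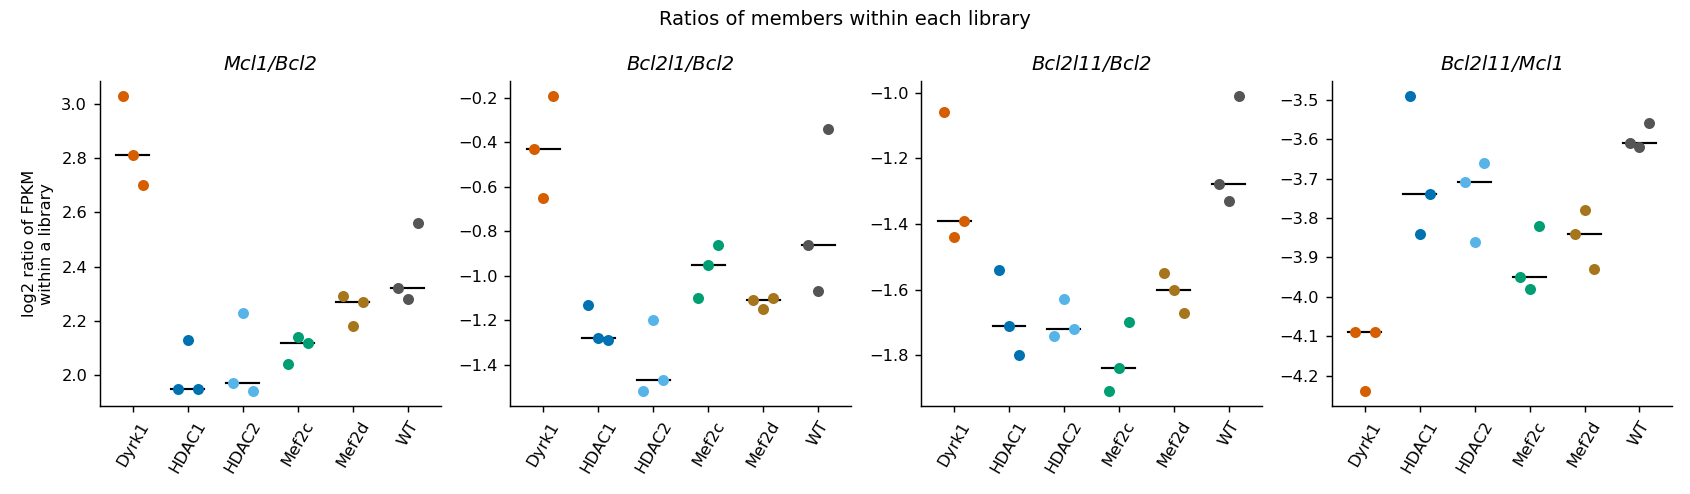
Log2 ratio of FPKM of 2 members within a library (4 panels: Mcl1 to Bcl2, Bcl2l1 to Bcl2, Bcl2l11 to Bcl2 and Bcl2l11 to Mcl1) by group; points are libraries and lines group medians. The Mcl1 to Bcl2 ratio of the Dyrk1-labelled libraries (2.70 to 3.03) lies above all others, and their Bcl2l11 to Mcl1 ratio (-4.24 to -4.09) below all others.

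Bcl2 and Bak1 ran in opposite directions over the 18 libraries, and both moved with the cell cycle genes. Pearson's r between log2(FPKM + 1) of Bcl2 and Bak1 was -0.91 and Spearman's rho -0.82 (permutation p 1e-05 and 7e-05; adjusted over 65 relations 0.000325 and 0.00227). The first of these is the smallest p that 100000 permutations can give. Without the 2 libraries farthest from the median r was -0.86, and after subtraction of group means it was -0.71. The libraries were permuted without regard to group, and libraries of 1 group share a genotype. Of 45 member pairs 3 passed; Bak1 with Pmaip1 gave r 0.74 and rho 0.75 (permutation p 0.00059 and 0.00056, adjusted 0.00767 and 0.00728), 0.67 without the 2 farthest libraries and 0.61 after subtraction of group means. Bax with Bad (r 0.66, rho 0.49; permutation p 0.00407 and 0.0399, adjusted 0.0378 and 0.201) rested on 2 libraries, since r was 0.23 without them.

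The 12 cell cycle genes summed to 489 to 536 FPKM in Dyrk1-labelled, 252 to 344 in HDAC1-labelled, 174 to 217 in HDAC2-labelled, 234 to 259 in Mef2c-labelled, 222 to 261 in Mef2d-labelled and 266 to 482 in WT libraries. Against WT, 2 of the 12 rose with the Dyrk1 label and 0 passed with HDAC1 (3 at an unadjusted p under 0.05), while 11 fell with HDAC2, 7 with Mef2c and 9 with Mef2d. Of all genes, 17.3% were called with Dyrk1, 12.5% with HDAC1, 25.6% with HDAC2, 19.0% with Mef2c and 21.9% with Mef2d. All 12 were higher with Dyrk1 than with the other deletion labels, where 21.9% of all genes were called. Their mean log2 level had an r of 0.94 and a rho of 0.95 with Bak1 (permutation p 1e-05 each, adjusted 0.000325 and 0.00065), 0.92 without the 2 farthest libraries and 0.70 after subtraction of group means. With Bcl2 it had an r of -0.87 and a rho of -0.77 (permutation p 1e-05 and 0.00025, adjusted 0.000433 and 0.0052), -0.81 without the 2 farthest libraries and -0.63 after subtraction of group means. Pmaip1 (r 0.74, rho 0.77; permutation p 0.00046 and 0.00032, adjusted 0.00747 and 0.0052) followed, at 0.61 without the 2 farthest libraries and 0.50 after subtraction of group means, and Bcl2l1 was weaker (r 0.63, rho 0.55; permutation p 0.00395 and 0.0185, adjusted 0.0378 and 0.15), at 0.62 and 0.44. Mcl1 did not follow them (r 0.34, rho 0.14; permutation p 0.16 and 0.586, adjusted 0.479 and 0.892), and r was -0.13 without the 2 farthest libraries. The part of the cell cycle genes in the differences of Bak1, Bcl2, Bcl2l1 and Pmaip1 between labels was not tested.

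**Figure D4:**
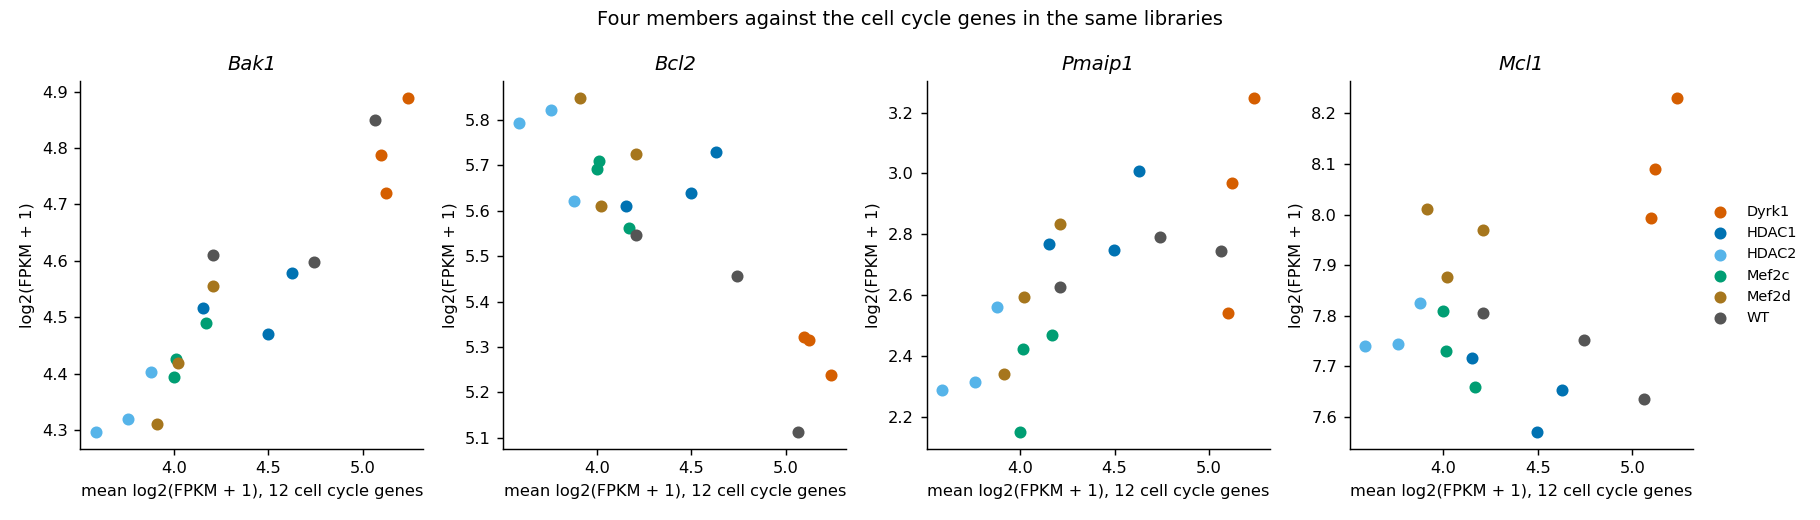
Log2(FPKM + 1) of Bak1, Bcl2, Pmaip1 and Mcl1 (4 panels, vertical axes) against the mean log2(FPKM + 1) of 12 cell cycle genes (horizontal axis) in the 18 libraries, coloured by group. Bak1 rises (r 0.94) and Bcl2 falls (r -0.87) along the axis, with the Dyrk1-labelled libraries at its high end and the HDAC2-labelled libraries at its low end.

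Among 15 further genes of the family, of which 12 were tested, the widest change belonged to a p53-responsive BH3-only gene. Bbc3, which encodes PUMA, stood at 60.48 ± 6.73 FPKM with the Dyrk1 label, against 21.18 ± 1.28 in WT (log2 1.47, SE 0.10, limma adjusted p 7.29e-07) and 19.74 ± 2.27 with the other 4 deletion labels (log2 1.57, SE 0.08, limma adjusted p 7.34e-09). Both held under all alternatives run (14 and 23). With the Dyrk1 label the mean FPKM of Bbc3 was above that of Bcl2. A list of 8 p53 targets that holds Bbc3 had 6 of 7 tested genes higher than in WT with the Dyrk1 label, where 17.3% of all genes were called, and 4 of 7 higher than with the other deletion labels, where 21.9% were, although Trp53 itself, at 49.1 to 59.8 FPKM, did not pass. Bik, another BH3-only gene, was lower with HDAC2 (1.617 ± 0.979 against 4.073 ± 1.65 FPKM in WT, log2 -0.97, limma adjusted p 0.0109), which was lost without HDAC2 replicate 2 (-0.76) and in the fit of 6 libraries. Its fall with Dyrk1 (1.72 ± 0.264 FPKM, log2 -0.86, limma adjusted p 0.0265) was lost under 7 of 14 alternatives, among them without Dyrk1 replicate 1 (-0.77) or 3 (-0.89) and without WT replicate 2 (-0.60). The guardian Bcl2l2 (BCL-w) was low throughout and higher with HDAC2, at 2.637 ± 0.531 against 1.628 ± 0.15 FPKM in WT (log2 0.46, limma adjusted p 0.0173; 0.35 and lost without HDAC2 replicate 2). It was lower with Dyrk1 than with the other deletion labels (1.229 ± 0.166 against 2.021 ± 0.636 FPKM, log2 -0.41, limma adjusted p 0.00846; -0.35 and lost without the B cell marker-rich libraries). The remaining calls of this list, Bcl2a1d lower with HDAC2, Bnip3 and Bcl2l14 lower with Mef2d and Bcl2l2 lower with Mef2c than with Mef2d, were lost under 7, 8, 10 and 8 of 14 alternatives, with single libraries of either group among those whose omission lost them. Reads of Bcl2a1d are uncertain because of near-identical Bcl2a1 copies. With HDAC1, where 12.5% of all genes were called, 0 of the 12 passed in limma, and 0 had an unadjusted p under 0.05. With Mef2c, where 19.0% were called, 0 passed and 2 had one.

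A list of 17 genes held the apoptosome, caspases and their inhibitors, and also mitochondrial genes outside the caspase cascade, among them the channels Vdac1, Vdac2 and Vdac3. Of the 17, 3 rose with the Dyrk1 label, where 17.3% of all genes were called. Among them were Apaf1, the scaffold of the apoptosome (12.06 ± 1.66 against 8.388 ± 0.601 FPKM in WT, log2 0.47, limma adjusted p 0.0046), and the caspase inhibitor Xiap (log2 0.34, limma adjusted p 0.0115). Apaf1 and Xiap were lost in the fit of the 6 libraries alone, and Xiap also without WT replicate 3 (0.27) and with gene length and GC trends taken out (0.19). Lower genes with HDAC2, where 25.6% of all genes were called, numbered 5, among them Vdac1, Vdac2 and Vdac3. Vdac1 was at 51.53 ± 2.48 against 72.21 ± 8.09 FPKM in WT (log2 -0.47, limma adjusted p 0.00287), and Vdac3 at a log2 difference of -0.41 (limma adjusted p 0.00546). Vdac1 was also lower with Mef2c (log2 -0.39, limma adjusted p 0.00544) and with Mef2d (log2 -0.45, limma adjusted p 0.00271). With Mef2c, where 19.0% of all genes were called, 3 genes fell, Vdac1, Vdac3 and Cycs. With Mef2d, where 21.9% were called, 2 fell, Vdac1 and Vdac3, and 2 rose. Of the 5 calls with HDAC2, 2 held without HDAC2 replicate 1 or without WT replicate 3 and 3 held without HDAC2 replicate 2. Of the 3 with Mef2c, 1 held without Mef2c replicate 1, Mef2c replicate 2 or WT replicate 3, and of the 4 with Mef2d, 2 held without Mef2d replicate 1 or 2 and 1 without WT replicate 3. The 3 Vdac1 calls held under all 14 alternatives. With HDAC1, where 12.5% of all genes were called, 0 passed in limma and 5 had an unadjusted p under 0.05.

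Of 10 death receptor genes, Tnfrsf1a, the TNF receptor that can signal survival or death, was higher than in WT (13.8 ± 1.51 FPKM) with HDAC1 (18.55 ± 1.41 FPKM, log2 0.40, limma adjusted p 0.00704), HDAC2 (20.18 ± 0.639 FPKM, log2 0.52, limma adjusted p 0.00209), Mef2c (19.04 ± 0.686 FPKM, log2 0.44, limma adjusted p 0.00148) and Mef2d (20.2 ± 1.64 FPKM, log2 0.52, limma adjusted p 0.000615). These 4 calls held under all alternatives run, except HDAC1 in the fit of 6 libraries. Tnfrsf1a was lower with Dyrk1 than with those labels (15.02 ± 0.699 against 19.49 ± 1.25 FPKM, log2 -0.35, limma adjusted p 0.000812). Cflar, the inhibitor of caspase 8, was higher with Mef2d (34.29 ± 0.55 against 25.41 ± 3.46 FPKM in WT, log2 0.43, limma adjusted p 0.00918; 0.31 and lost without WT replicate 3). Its calls with Dyrk1 (log2 0.37) and HDAC2 (0.30) were lost under 4 and 9 of 14 alternatives, among them without WT replicate 3 (0.26 and 0.18), without Dyrk1 replicate 3 (0.27) and without HDAC2 replicate 1 (0.27), 2 (0.31) or 3 (0.31). With gene length and GC trends taken out, Cflar stood at 0.18 with Dyrk1 and 0.07 with HDAC2, both lost, and at 0.22 with Mef2d, which passed. Fasl, the ligand of the death receptor Fas, rose with HDAC2 (5.934 ± 1.08 against 2.682 ± 0.514 FPKM in WT, log2 0.91, limma adjusted p 0.00268), under all 14 alternatives. Against WT, 1 of the 10 genes rose with Dyrk1, 1 with HDAC1, 3 with HDAC2, 1 with Mef2c and 2 with Mef2d, and 0 fell. The shares of all genes called were 17.3%, 12.5%, 25.6%, 19.0% and 21.9% in the same order.

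Of 12 genes of interleukin 2 and 7 input, 4 rose and 3 fell against WT with Mef2c, where 19.0% of all genes were called. With Dyrk1, where 17.3% were called, 1 rose. With HDAC1, HDAC2 and Mef2d, where 12.5%, 25.6% and 21.9% of all genes were called, 0 passed in limma (0, 4 and 2 at an unadjusted p under 0.05). With Mef2c the kinase gene Jak3 was higher (111.5 ± 9.66 against 81.44 ± 5.48 FPKM in WT, log2 0.45, limma adjusted p 0.00389), and the interleukin 2 receptor chain Il2rb (299.4 ± 12.1 against 379.7 ± 4.91 FPKM, log2 -0.34, limma adjusted p 0.0137) and Stat5a (34.49 ± 0.308 against 40.29 ± 0.875 FPKM, log2 -0.22, limma adjusted p 0.0113) were lower. Jak3 and Stat5a held under all 14 alternatives, and Il2rb was lost without Mef2c replicate 1 (-0.33) or WT replicate 3 (-0.34). Of the 7 calls with Mef2c, 3 held without Mef2c replicate 1, without Mef2c replicate 2 or without WT replicate 3, and 4 held without Mef2c replicate 3, without WT replicate 1 or without the B cell marker-rich libraries. Socs1 was lost under 11, Pim1 under 10 and Il7r under 8 of 14 alternatives. Pim1, a kinase induced by STAT5 that inactivates BAD, was higher with Dyrk1, at 214.4 ± 24.5 against 133.5 ± 11.6 FPKM in WT (log2 0.68, SE 0.09, limma adjusted p 0.000615), and did not pass in the fit of the 6 libraries alone.

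Of 10 genes of MCL1 and BIM turnover and chaperoning, 2 passed as higher with each of the Dyrk1, HDAC1, HDAC2 and Mef2d labels, and 1 was lower with HDAC2. Of all genes, 17.3%, 12.5%, 25.6% and 21.9% were called in these comparisons, so the counts are not read as particular to the list. The 2 higher genes were Huwe1, an E3 ligase that marks MCL1 for destruction, and Usp9x, the deubiquitinase that stabilises it. Huwe1 was at 49.93 ± 4.62 FPKM with Dyrk1, 59.48 ± 1.52 with HDAC1, 59.55 ± 6.85 with HDAC2 and 53.62 ± 4.19 with Mef2d, against 35.82 ± 3.11 in WT (log2 0.47, 0.72, 0.72 and 0.57; limma adjusted p 0.0282, 0.00602, 0.00328 and 0.00946). Usp9x was at 15.3 ± 3.01, 16.11 ± 0.492, 15.21 ± 0.908 and 15.39 ± 1.15 FPKM with the same labels, against 10.4 ± 1.06 in WT (log2 0.50, 0.59, 0.51 and 0.53; limma adjusted p 0.0128, 0.00897, 0.00844 and 0.00847). With HDAC1 and HDAC2 both genes held under all alternatives, at lower values with gene length and GC trends taken out (Huwe1 0.33 and 0.34, Usp9x 0.33 and 0.26). That setting ended the Mef2d calls (0.22 and 0.26) and the Huwe1 call with Dyrk1 (0.21). Without WT replicate 3 the calls of Huwe1 with Dyrk1 (0.40) and Mef2d (0.50) and of Usp9x with Dyrk1 (0.45) were lost, as were those with Dyrk1 without Dyrk1 replicate 3 (Huwe1 0.40, Usp9x 0.36), Huwe1 without Dyrk1 replicate 2 (0.47) and both in the fit of 6 libraries. With Mef2c, where 19.0% of all genes were called, 0 of the 10 passed in limma and 3 had an unadjusted p under 0.05. Among the 3 were Huwe1 at 46.25 ± 11.6 FPKM (log2 0.34, limma adjusted p 0.0935), above WT in all 3 libraries, and Usp9x at 13.56 ± 2.1 FPKM (log2 0.35, limma adjusted p 0.0582). Mef2c and Mef2d did not differ past the threshold in either gene (log2 -0.23 with a 95% interval of -0.52 to 0.05 for Huwe1, -0.18 with -0.44 to 0.08 for Usp9x). Of 7 tested transcription factors known to act on BH3-only genes, 0 passed in limma in any of the 8 comparisons. These comparisons called 1.50% to 25.6% of all genes. At most 1 of the factors had an unadjusted p under 0.05. With each of the 5 labels against WT that gene was Myc, a growth and cell cycle regulator, named after its values were seen. It averaged 60.22 ± 11.7 FPKM with Dyrk1, 56.16 ± 6.06 with HDAC1, 60 ± 5.67 with HDAC2, 58.93 ± 7.39 with Mef2c and 58.93 ± 11.2 with Mef2d, against 75.17 ± 3.28 in WT, and every library of each label lay below every WT library (log2 -0.33, -0.42, -0.32, -0.35 and -0.36; limma adjusted p 0.141, 0.0796, 0.125, 0.116 and 0.0975). The 5 comparisons share the WT libraries.

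Pmaip1, Bcl2l1 and Mcl1 had the widest ranges of group means of log2(FPKM + 1) among the members averaging at least 5 FPKM (0.573, 0.493 and 0.458). Bmf is below that level, and Bak1, which tied with Mcl1 at 0.458, was not searched. The genes whose levels ran most like those of the 3 were searched among 7797 genes over the 18 libraries, as a description with no test. For Pmaip1 they were Uap1 (r 0.89), Cdk2 (0.89) and Il4i1 (0.87). For Bcl2l1 they were Anxa6 (0.93), Rad18 (0.88) and Sf3b2 (0.88). For Mcl1 they were Trim59 (0.89), Ccng2 (0.85) and Rps3a3 (0.86), the last a ribosomal gene copy listed at 1.2 to 867 FPKM whose reads cannot be placed with certainty.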

How the data were processed

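Sorted Treg RNA from 18 libraries in 6 labelled groups of 3 was sequenced as paired reads, and libraries were made with an NEBNext kit, per the labels' protocols. Per the submitters' processing notes, the mm10 build, STAR and HTSeq were used; versions, annotation and strand setting are not given in the sources used here. The deposited values carry no stated unit and were taken as FPKM: multiplied by a gene length and a factor per library they gave whole reads within 0.03. Those lengths were fitted, so read numbers depend on the fit, and RPKM cannot be told apart from FPKM. Of 35275 identifiers 34490 had a symbol. Gene positions are from GENCODE on mm10 and promoter windows from RefSeq on GRCm38.p6; the Pmaip1 window was not used here.

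From these values log2(FPKM + 1) was tested in R 4.3.3 with limma 3.58.1 (a mean per group, variance trend, 12 residual degrees of freedom) on genes that reached 1 FPKM in 3 or more libraries, with Benjamini-Hochberg adjustment over 12223 genes. Dyrk1 was also compared with the mean of the other 4 deletion labels. SE is that of the fit, and differences understate the change of low genes. The members and gene lists were chosen with earlier results of these data known. From each list up to 3 genes per comparison with the smallest adjusted p were named. Foxo1, Foxo3, Trp53, any Vdac gene beyond these and those noted in the text were named after their values were seen. The fit was tested on simulated data. Alternatives were a pseudocount of 0.25, no filter, RLE scaling, removal of length and GC trends (splines with 4 degrees of freedom each), no variance trend, a replicate block, only the libraries compared, and leaving out each library. Leaving out the 3 libraries rich in B cell markers (mean log2 more than 1 above the median library) was added after the data were seen.

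Same-numbered libraries deviated together, with every correlation above 0.1, in HDAC2 against WT (0.33, 0.24 and 0.16), HDAC1 against HDAC2 (0.21, 0.43 and 0.13) and Mef2c against Mef2d (0.31, 0.40 and 0.31). In HDAC1 against WT this held for replicates 1 and 2 (0.30 and 0.46) and not for replicate 3 (0.07). It did not hold for Dyrk1, Mef2c and Mef2d against WT. Values of some single genes of the pathway lists, which the lists' counts include, are not reported here.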

Additional observations from a re-analysis of the deposited data

Results flagged for a closer look

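The levels of 5 members with the Dyrk1 label differed from those with the other 4 deletion labels by a direct limma test of the difference. The log2 difference, Dyrk1 minus the mean of the other deletion labels, was -0.40 for Bcl2, 0.33 for Bcl2l1, 0.33 for Mcl1, 0.37 for Bak1 and 0.38 for Pmaip1. For Bcl2 and Bak1 the libraries did not overlap, and for Bcl2l1, Mcl1 and Pmaip1 they did. Over the same libraries the 12 cell cycle genes summed to 489 to 536 FPKM with the Dyrk1 label and 174 to 344 FPKM with the other deletion labels, and the part of this in the 5 differences was not tested. Against WT, only Mcl1 of the 5 passed with the Dyrk1 label (log2 0.37, limma adjusted p 0.00371). Bcl2 (-0.08), Bcl2l1 (0.24), Bak1 (0.11) and Pmaip1 (0.20) did not (limma adjusted p 0.605, 0.11, 0.328 and 0.421). For Bcl2 and Bak1 every library of the other 4 deletion labels lay outside the WT range, and the Dyrk1-labelled libraries overlapped it.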

How the results depend on the processing

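No called difference of a member or pathway gene named here changed sign under any alternative. Removal of length and GC trends gave 2 called members against WT for Dyrk1, 1 for HDAC1, 1 for HDAC2, 3 for Mef2c and 1 for Mef2d. Some of these calls (Bcl2l11 with Dyrk1 and HDAC1, Pmaip1 with Mef2c) were gained there and absent from the main fit. Fits of the libraries compared alone gave 0 for Dyrk1, 1 for HDAC2 (Bak1), 1 for Mef2c (Bcl2l11) and 1 for Mef2d. The Mef2d call was Bmf, gained in that fit, and the Mef2d calls of Bcl2, Mcl1 and Bak1 were all lost in it. Leaving out the 3 libraries with most B cell markers gave 2 for Dyrk1 and 1 for Mef2c, and with no filter 1 for Mef2c. The cause of these shifts was not tested. Leaving out a library gave 1 to 2 called members for Dyrk1, 0 to 1 for HDAC1, 1 to 3 for HDAC2, 0 to 3 for Mef2c, 0 to 3 for Mef2d, 4 to 5 for Dyrk1 against the other deletion labels and 4 to 7 in the F test. HDAC1 against HDAC2 and Mef2c against Mef2d stayed at 0 calls under all alternatives run. The share of all genes called under each alternative is not given beside these counts. No change in them is therefore read as particular to the members.

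With a replicate block the F test called 4 members in place of 7, Dyrk1 against the other deletion labels 4 in place of 5 (Pmaip1 was lost, at an unchanged log2 difference of 0.38 and an adjusted p of 0.0614 in a range of 0.00558 to 0.317), and none of the members' calls against WT changed. Among the pathway genes' calls against WT, the block lost Cflar and Cycs with HDAC2, Cycs, Vdac3, Socs1 and Pim1 with Mef2c, and Bcl2l14 and Bnip3 with Mef2d. Same-numbered libraries of Dyrk1 and WT had correlations of -0.25, 0.12 and -0.14. Those of Mef2c and WT had -0.14, -0.15 and 0.14, and those of Mef2d and WT -0.36, -0.32 and 0.16. For these labels the number may be a name only. HDAC1 and WT had 0.30, 0.46 and 0.07, and HDAC1 replicates 1 and 2 correlated best with their own number in WT. Every library correlated best with its own number in HDAC2 against WT and in Mef2c against Mef2d.

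With 3 libraries a group, the smallest member difference from WT that passed was 0.22 on the log2 scale, and for Bmf, Bad and Pmaip1 few reads add counting error of 8.42%, 6.9% and 7.76% at the lowest library.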
